A study of Homo sapiens with 24 samples.

Results

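The RNAs recovered with RUVBL1 from HCT116 cells treated with CB-6644 were described across all genes. HCT116 is a human colon carcinoma line, and CB-6644 inhibits the ATPase activity of RUVBL1 and RUVBL2. The members were the 4 libraries of the treated RUVBL1 line, out of 16 libraries of that line and 24 in the series. They comprised 2 immunoprecipitates on anti-GFP beads (GFP libraries, replicates 1 and 2) and 2 on uncoupled agarose control beads (bead libraries, replicates 1 and 2). The cells carried a GFP knock-in at RUVBL1 made with CRISPR/Cas9 and received 0.5 µM CB-6644 for 16 h. For comparison, untreated cells of the same line gave 4 libraries, and cells given CB-6644 together with 100 µg/mL puromycin for 30 min gave another 4, in the same layout. The remaining libraries of the line came from cells given 100 µg/mL puromycin for 30 min without CB-6644. They entered the fit of all 16 libraries but no comparison. Puromycin releases nascent chains from the ribosome. All of these groups share the GFP knock-in, so the control differs from the sample in the bead and not in the cell. Nothing in the labels tells whether the replicates are separate cultures or whether the line is 1 clone. Except where fewer libraries were fitted, the p-values therefore reflect the variation among all 16 libraries of the line, technical or not. They do not measure the spread of the 4 CB-6644 libraries alone.

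RUVBL1 and RUVBL2 are related AAA+ ATPases that form hexameric rings together. With RPAP3 and PIH1D1 they form the R2TP co-chaperone, which works with HSP90 in the assembly of RNA polymerases, PIKK kinases and box C/D snoRNPs, and they are also subunits of the INO80, SRCAP and TIP60 chromatin complexes. Box C/D snoRNAs guide ribose methylation of RNA as particles with fibrillarin, NOP56, NOP58 and SNU13, whereas box H/ACA snoRNAs guide pseudouridylation with dyskerin, and small Cajal body RNAs (scaRNAs) of either type guide the modification of spliceosomal RNAs. An mRNA recovered with a chaperone can be held through the nascent protein on its ribosomes, which is what a puromycin arm probes.

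The deposited counts of these 4 libraries summed to 19476423 and 9019665 in GFP replicates 1 and 2 and to 22231589 and 24572078 in bead replicates 1 and 2, and totals in the RUVBL1 line ran from 9019665 to 33051512. GFP replicate 2 stood apart from its partner. The pair correlated at r = 0.9325 in log2 CPM (counts scaled to a common library total) and its log2 values differed with an SD of 1.15, where the other replicate pairs of the line had SDs from 0.594 to 0.961. On the first and second principal components of the 16 libraries, which held 39% and 17.6% of the variance, GFP replicate 2 lay at -54.31 and 38.85 and GFP replicate 1 at -8.60 and 9.71. The first GFP replicate of CB-6644 plus puromycin (-47.77 on the first component) and the second bead replicate of untreated cells (35.21 and 27.60) also lay away from their partners. Colon epithelial markers summed to 4648 to 5080 CPM in the GFP libraries and 3765 to 4034 CPM in the bead libraries, with CEACAM6 and VIL1 at 0 in all 4. Blood cell markers summed to 1.18 to 4.32 against 1.21 to 1.63 CPM with PTPRC, HBB and CD3E at 0, and liver markers to 6.73 to 19.6 against 9.48 to 10.9 CPM with TTR at 0. Stromal and endothelial markers summed to 9.34 to 45.7 against 5.80 to 6.43 CPM with COL1A2, LUM and CDH5 at 0. Within that list, COL1A1 was at 7.33 and 34.7 CPM against 5.73 and 5.71 CPM.

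After CB-6644 the RNAs that stood above the bead background were of several kinds: box C/D snoRNAs, scaRNAs and a set of mRNAs led by SCAF4, CHERP and SCAF8. Enrichment here is the log2 ratio of GFP over bead libraries from edgeR's quasi-likelihood fit to all 16 libraries of the line, with its standard error (SE), and a gene was called at a Benjamini-Hochberg adjusted p under 0.05. Of 15976 genes tested, 298 were higher on GFP beads (1.87%) and 89 were lower (0.557%). The split was 771 to 47 when libraries were scaled by their totals and 308 to 176 by their upper quartiles. The 298 comprised 209 protein-coding genes, 75 snoRNAs, 10 scaRNAs, 2 long non-coding RNAs and 2 transcribed pseudogenes, and of the 89 lower genes 80 were protein-coding. In each of these 387 genes (2.42%) both GFP libraries lay on the same side of both bead libraries, which held for 23.1% of all genes tested on the upper side and 24.9% on the lower. As the immunoprecipitates came from bulk material, fewer cells and less RNA per cell cannot be told apart, and all values are shares of a library.

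Each GFP replicate was also fitted alone against both bead libraries, with the lone library assumed to vary like the other groups. Replicate 1 alone gave 145 higher (0.908%) and 8 lower genes (0.0501%). Replicate 2 alone gave 1591 higher (9.96%) and 1994 lower (12.5%). Of the 298 higher genes, 234 had more CPM in replicate 2 than in replicate 1. With replicate 1 alone all 298 and all 89 lay on the same side of 0 as with both. That follows from the lack of overlap in every called gene and is not separate evidence that the replicates agree. Among the 209 coding genes, 156 had more CPM in replicate 2 than in replicate 1, where 6085 of the 13635 coding genes tested did. The count also rested on the bead libraries: it was 64 (all higher) without bead replicate 1, 48 (47 higher) without bead replicate 2 and 12 (all higher) with the 4 libraries fitted on their own. Without the other 2 libraries that stood apart it was 536 higher and 289 lower.

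Box C/D snoRNAs were recovered as a class. Summed over the 357 box C/D genes of the table, they made up 2796 and 8639 CPM of all counts in GFP replicates 1 and 2 and 137 and 125 CPM in the bead libraries of CB-6644-treated cells. In untreated cells the same sums were 188 and 311 CPM on GFP beads and 154 and 127 CPM on control beads, and after CB-6644 plus puromycin they were 7386 and 4689 CPM against 164 and 235 CPM. Both GFP libraries of each CB-6644 treatment lay above all bead libraries and above both untreated GFP libraries. Among the 2 GFP libraries after CB-6644, replicate 2 held the larger sum.

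**Figure D1:**
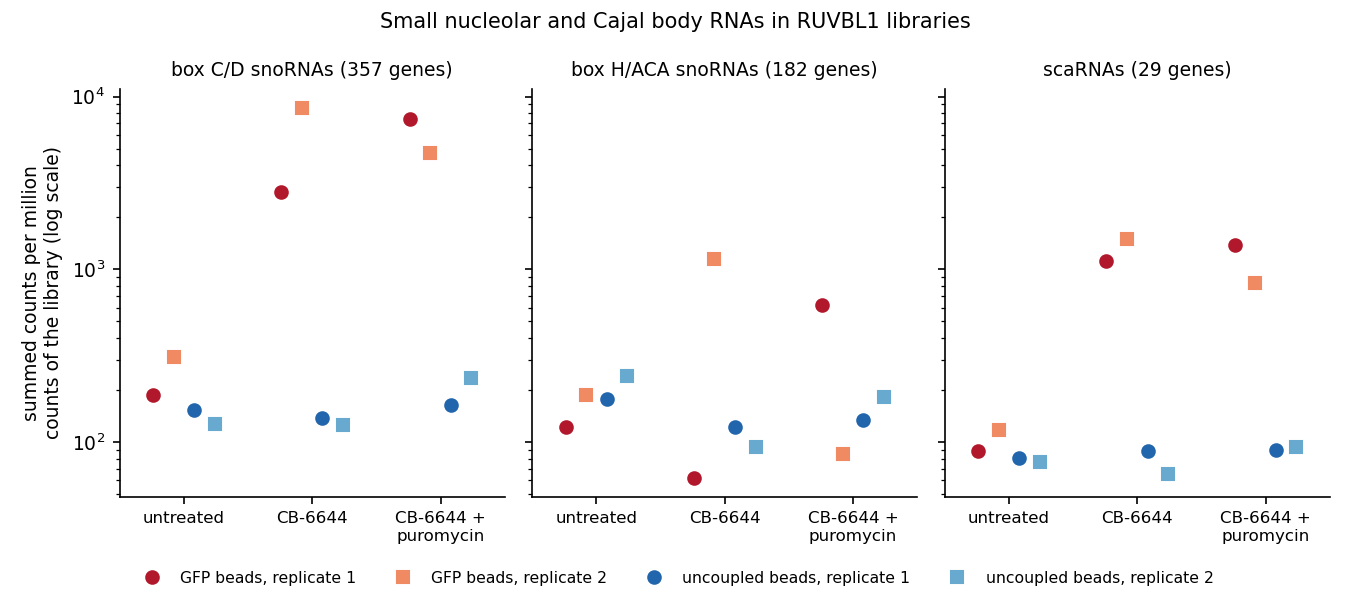
Summed CPM (log axis) of box C/D snoRNAs (357 genes), box H/ACA snoRNAs (182) and scaRNAs (29) in each library of untreated, CB-6644 and CB-6644 plus puromycin cells. Points are single libraries; box C/D sums reach 2796 and 8639 CPM on GFP beads after CB-6644 against 137 and 125 CPM on control beads, while box H/ACA sums are at 61.7 and 1145 CPM against 123 and 94.0 CPM.

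Of the 357 box C/D genes, 134 had enough counts to be tested, and 75 of these were higher on GFP beads and 0 lower (background 1.87%), with a median log2 enrichment of 4.75 beside 0.02 over all genes tested. With the 13 genes that had no count on control beads set to their bound of 3 counts, the median was 4.65. In 126 of the 134, both GFP libraries lay above both bead libraries, where 23.1% of all genes tested did. The median was 3.90 with replicate 1 alone and 5.49 with replicate 2 alone, beside -0.02 over all genes tested with each. The same genes gave 4 calls (background 0.914%) and a median of 0.80 in untreated cells, and 52 calls (background 0.557%) and a median of 4.13 after CB-6644 plus puromycin. The count fell to 34 without bead replicate 1, to 26 without bead replicate 2 and to 3 with the 4 libraries on their own; it was 78 without the other 2 libraries that stood apart. A gene enters the test through its counts in any group, so members that passed only because they were high on GFP beads had to differ, and the 134 are not the whole class.

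SNORD15B, which lies in the span of RPS3 at chr11:75404421-75404566 (GRCh38), was the most abundant of the box C/D snoRNAs named here. It was at 1016 and 1674 CPM in the GFP libraries and 25.3 and 24.3 CPM in the bead libraries. The groups did not overlap, and both GFP libraries were far above the beads (log2 5.76 ± 0.41, adjusted p = 1.13e-08). SNORD17, in the span of SNX5 at chr20:17962710-17962946, was at 299.5 and 1108 CPM against 9.27 and 8.70 CPM (log2 6.29 ± 0.73). SNORD22, at chr11:62852910-62853035 in SNHG1, was at 147 and 599.8 CPM against 4.16 and 4.15 CPM (log2 6.49 ± 0.60). In both of these the second GFP replicate was the higher and the bead libraries lay close together. The SNORD17 call was lost without either bead library. U3 snoRNA, the processing snoRNA of the small ribosomal subunit, has near-identical copies, so reads may be divided among them and their values are uncertain. SNORD3C was at 30.4 and 62.2 CPM against 0.621 and 1.34 CPM (log2 5.54 ± 0.44). The more abundant SNORD3A was at 239 and 128 CPM against 6.21 and 7.76 CPM, with replicate 1 the higher, and was not called (log2 4.72 ± 1.19, adjusted p = 0.0771), although DESeq2 called it. SNORD3D was not called either (log2 4.78 ± 2.28, adjusted p = 0.224); both lie outside the naming rule.

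Among called RNAs with a mean of at least 5 CPM, the largest ratios were those of SNORD5, SNORD41 and SNORD50A, which had few counts on control beads. SNORD135, SNORD59B, SNORD88C and SNORD88A had larger fitted values at lower means, with 0 counts on control beads. These RNAs lie outside the naming rule. SNORD5, within TAF1D, had 617 counts over both GFP libraries and 2 over both bead libraries, a depth-scaled ratio of 441 with an exact 95% interval from 122 to 3649 that covers counting error alone. Its CPM were 7.69 and 43.2 on GFP beads and 0 and 0.0892 on control beads. SNORD41, within TNPO2, was at 10.0 and 63.7 CPM against 0.143 and 0.223 CPM (log2 7.59 ± 0.87). SNORD50A, within SNHG5, was at 12.5 and 88.2 CPM against 0.287 and 0.491 CPM (log2 6.98 ± 1.09). Replicate 2 was again the higher GFP library in all 3, and no GFP library overlapped the beads. SNORD87, which overlaps the span of SNHG6, showed 25.2 and 164 CPM against 1.10 and 1.20 CPM (log2 6.35 ± 0.83). SNORD95 within RACK1 (log2 6.25 ± 0.88), SNORD134 within FASN (5.41 ± 0.72) and SNORD33 within RPL13A (5.91 ± 0.49) were among those called with either GFP replicate alone. SNORD5, SNORD50A and SNORD87 were not called without bead replicate 1 or bead replicate 2, nor SNORD134 without bead replicate 2.

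SnoRNAs of one host could be compared with each other and with the host transcript. SNHG1, a spliced non-coding host, carried SNORD22, SNORD26, SNORD27 and SNORD29, whose enrichments were 6.49 ± 0.60, 6.80 ± 0.99, 6.30 ± 0.59 and 6.67 ± 0.68, and SNORD28, SNORD30 and SNORD31, which were also called but at lower values of 4.50 ± 0.98, 5.94 ± 0.94 and 5.36 ± 0.83. SNHG1 itself was at 267 and 175 CPM against 78.6 and 74.6 CPM and was called at a far lower log2 of 1.53 ± 0.23, adjusted p = 0.000467. GAS5, another non-coding host, carried SNORD47, SNORD76, SNORD79 and SNORD81 with enrichments of 6.93 ± 0.97, 6.30 ± 0.74, 6.47 ± 0.86 and 6.85 ± 1.52, and SNORD44 and SNORD80 with 4.49 ± 0.84 and 4.66 ± 0.67. Its SNORD74, SNORD77 and SNORD78 were not called, at 2.02 ± 0.77, 3.26 ± 1.33 and 0.96 ± 1.63, so enrichment varied within this host. The GAS5 transcript had a log2 of 0.38 and was not called. Without bead replicate 2, SNORD26, SNORD28, SNORD30 and SNORD31 of SNHG1 and all the called snoRNAs of GAS5 lost the call. Without bead replicate 1, SNORD26, SNORD44, SNORD76, SNORD79 and SNORD81 lost it, and without GFP replicate 2 SNORD28 and SNORD81. SNORD74 was called with GFP replicate 2 alone. The members of both hosts beyond those named above lie outside the naming rule. Of the 75 called box C/D snoRNAs, 71 lay within 44 tested host genes, of which 1, SNHG1, was itself higher; the median host value was -0.27. Host values were -0.61 for RPS3, -0.32 for SNX5, -0.67 for RACK1 and -0.75 for RPL13A, none of them called. The hosts were assigned by position alone, and the sources used here give no strand setting for the counting, so reads of a snoRNA and of an overlapping transcript may not be fully separated. SNHG1, like the other genes said below to lie outside the naming rule, was singled out after its values were seen.

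Box H/ACA snoRNAs behaved differently in the 2 GFP libraries. Their summed level over 182 genes was 61.7 CPM in GFP replicate 1 and 1145 CPM in GFP replicate 2, against 123 and 94.0 CPM on control beads, so replicate 1 lay below and replicate 2 above both bead libraries. Of 79 tested, edgeR called 0 with both replicates (15 higher and 0 lower at an unadjusted p under 0.05, and 4 higher and 0 lower with DESeq2), with a median log2 of 2.14. Over all 15976 genes tested, 1903 were higher and 1628 lower at that unadjusted p, and 944 and 482 with DESeq2. Replicate 1 alone called 0 with a median of -0.999, and replicate 2 alone called 24 higher (background 9.96%) with a median of 3.11. With genes at 0 set to their bound, these medians were 2.11 for both replicates, -0.69 for replicate 1 and 3.11 for replicate 2. In 77 of the 79, replicate 2 had more CPM than replicate 1. SNORA73B, outside the naming rule, showed the split at 3.49 and 125 CPM against 20.5 and 5.71 CPM. The first GFP replicate of CB-6644 plus puromycin, another library that stood apart, held 625 CPM of box H/ACA snoRNAs, beside 85.4 CPM in its partner and 134 and 183 CPM on control beads. The part that library quality played in these values was not tested.

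The 45S ribosomal RNA precursor gene RNA45SN2 showed the same split, at 3.59 and 265 CPM against 8.26 and 4.28 CPM, as did the nuclear long non-coding RNA NEAT1, at 57.3 and 311 CPM against 95.4 and 71.7 CPM; both lie outside the naming rule. Neither was called with both replicates (adjusted p = 0.171 and 0.494). Ribosomal RNA copies are near-identical, so that value is uncertain.

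scaRNAs were high in both GFP libraries to a similar degree. The 29 scaRNA genes summed to 1114 and 1507 CPM on GFP beads and 88.6 and 65.1 CPM on control beads, whereas in untreated cells the sums were 88.9 and 117 CPM against 80.8 and 76.6 CPM. Of 17 tested, 10 were higher and 0 lower (background 1.87%), with a median log2 of 3.10. That median was 3.30 with replicate 1 alone and 3.01 with replicate 2 alone. In untreated cells 0 of the 17 were called by edgeR, with a median of 0.21. The count was 6 without bead replicate 2 and 6 with the 4 libraries on their own. scaRNAs were also divided by the boxes they are known to carry, after the values had been seen. The 4 tested box C/D scaRNAs were all higher (log2 2.45 to 5.04), as were the 4 that carry both kinds of box (3.75 to 5.48). Of the 6 box H/ACA scaRNAs, 0 were called (-0.35 to 2.11). None of the 6 held more than 54 counts in any of the 4 libraries, so a missing call says little. Of 3 not assigned, 2 were higher, SCARNA21 at 3.65 and SCARNA28 at 3.10, so the split depends on the assignment.

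SCARNA2, a box C/D scaRNA at chr1:109100193-109100612, was at 232 and 349.5 CPM in the GFP libraries and 15.0 and 10.8 CPM in the bead libraries (log2 4.49 ± 0.30, adjusted p = 3.69e-09). SCARNA7 was at 128 and 185 CPM against 9.22 and 9.59 CPM (log2 4.06 ± 0.30). SCARNA17 was at 59.1 and 125 CPM against 2.67 and 2.90 CPM (log2 5.04 ± 0.46). In each, both GFP libraries were more than an order above the beads, and replicate 2 was the higher. SCARNA5, with both kinds of box, was at 29.4 and 26.9 CPM against 0.860 and 0.402 CPM (log2 5.48 ± 0.49), and SCARNA28 was at 280.3 and 209 CPM against 31.0 and 26.0 CPM (log2 3.10 ± 0.25); here replicate 1 was slightly the higher. SCARNA10 and SCARNA12, also with both kinds of box and outside the naming rule, had log2 values of 4.57 ± 0.55 and 4.06 ± 0.60, the latter not called without bead replicate 2. Among the box H/ACA scaRNAs, SCARNA1 was at 0.564 and 3.70 CPM against 2.58 and 2.41 CPM and SCARNA16 at 0.410 and 1.48 CPM against 0.812 and 1.20 CPM, with replicate 1 below the beads and replicate 2 above them.

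**Figure D2:**
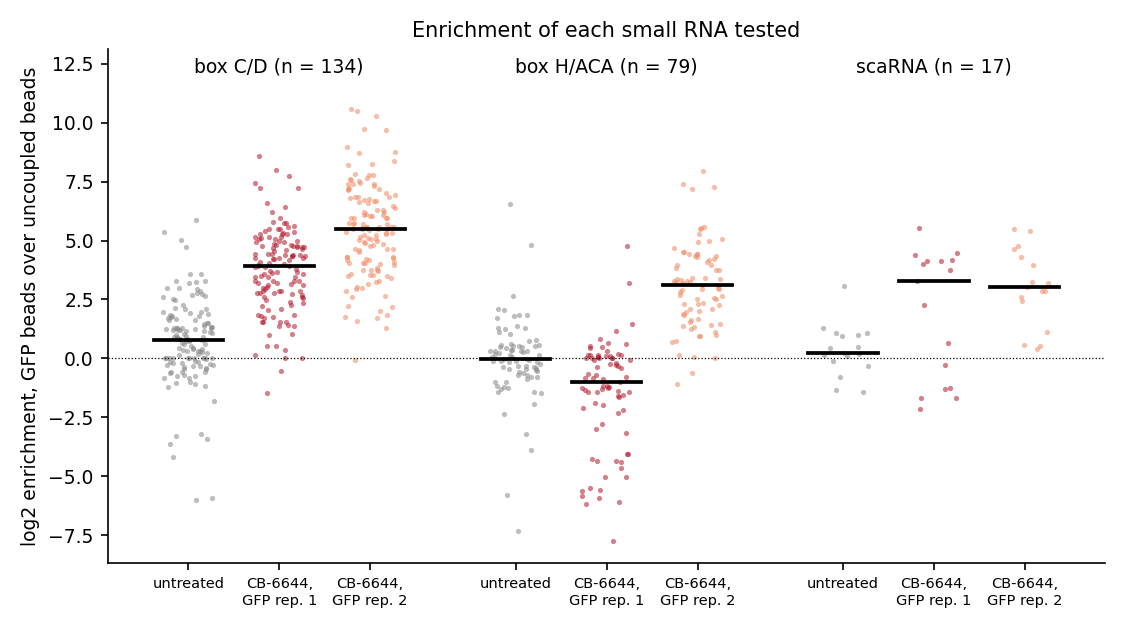
Log2 enrichment (GFP over bead libraries, edgeR fit) of each tested box C/D snoRNA, box H/ACA snoRNA and scaRNA in untreated cells and, after CB-6644, with GFP replicate 1 alone and replicate 2 alone. Points are single RNAs and black bars medians: box C/D medians are 0.80, 3.90 and 5.49, box H/ACA medians -0.03, -0.999 and 3.11, and scaRNA medians 0.21, 3.30 and 3.01. Fitted values of RNAs with no count on one side depend on the prior count.

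Among mRNAs, the 3 largest enrichments were those of SCAF4, CHERP and SCAF8, which belong to a list of genes for proteins with a CTD-interaction domain, which bind the C-terminal domain of RNA polymerase II. Of the 7 genes of that list, all tested, 5 were higher (background 1.87%): SCAF4, CHERP, SCAF8, PCF11 and RPRD2. The median of the 7 was 3.89 beside 0.02 over all genes. The remaining members, RPRD1A and RPRD1B, were not called. The same 5 were called with either GFP replicate alone, and without either bead library, while 2 were called with the 4 libraries on their own.

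SCAF4 (gene 57466, chr21:31671000-31732118), which acts in transcript termination, was at 3510.1 and 1477 CPM in the GFP libraries and 46.3 and 45.9 CPM in the bead libraries. Both GFP libraries were above both bead libraries by more than an order, and replicate 1 was the higher. The log2 enrichment was 5.76 ± 0.40, adjusted p = 1.12e-08, or 54.1-fold; it was 6.25 with replicate 1 alone and 5.00 with replicate 2 alone. CHERP, a nuclear protein of the splicing machinery at chr19:16517894-16542437, was at 2947 and 1439 CPM against 98.4 and 103 CPM (log2 4.44 ± 0.34, adjusted p = 1.45e-08). SCAF8, the paralog of SCAF4, was at 1376 and 580.0 CPM against 45.8 and 48.2 CPM (log2 4.38 ± 0.34, adjusted p = 2.07e-08). PCF11, a cleavage and termination factor, was at 1117 and 808 CPM against 65.7 and 64.6 CPM (log2 3.89 ± 0.36). RPRD2, outside the naming rule, was at 248 and 145 CPM against 47.4 and 48.8 CPM (log2 2.03 ± 0.25). In all 5 the bead libraries lay close together and GFP replicate 1 was above replicate 2. RPRD1A was at 219.7 and 123 CPM against 234 and 251 CPM (log2 -0.50 ± 0.24, adjusted p = 0.225) and with replicate 2 alone was lower at -0.99 (adjusted p = 0.0036). RPRD1B was at 19.2 and 18.1 CPM against 15.3 and 19.1 CPM (log2 0.12 ± 0.26, adjusted p = 0.833).

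SCAF4, CHERP, SCAF8 and RPRD2 were also more enriched after CB-6644 than in untreated cells. The change in log2 enrichment was 3.17 ± 0.48, adjusted p = 0.0014 for SCAF4, 3.59 ± 0.43, adjusted p = 7.45e-05 for CHERP, 2.85 ± 0.43, adjusted p = 0.00128 for SCAF8 and 2.02 ± 0.35, adjusted p = 0.00582 for RPRD2. PCF11, at 3.76 untreated and 3.89 after CB-6644, had no called change: 0.13 ± 0.46 (adjusted p = 0.931). CHERP was at 232 and 171 CPM against 139 and 83.7 CPM in untreated cells, where its GFP libraries lay near the beads. The RPRD2 change was no longer called without bead replicate 1, without bead replicate 2 or without the second untreated GFP replicate.

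**Figure D3:**
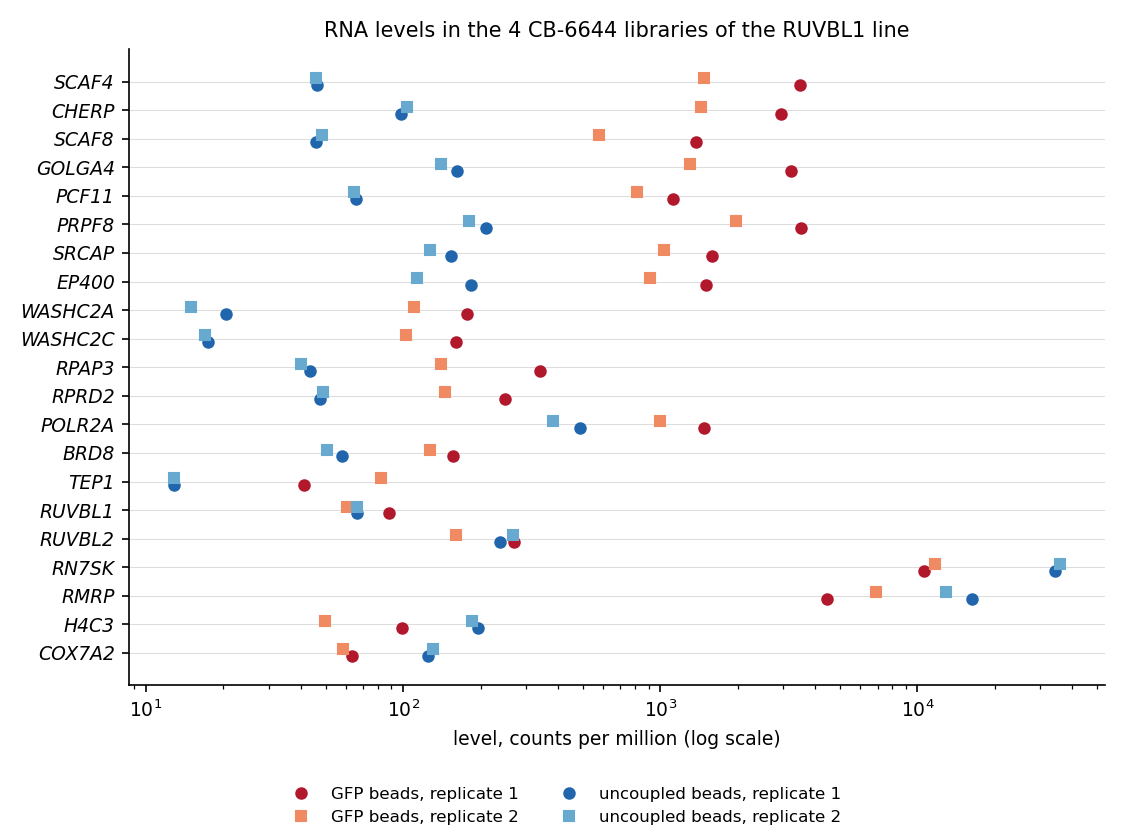
CPM (log axis) of 21 RNAs in the 4 libraries of CB-6644-treated cells, from SCAF4 to COX7A2. Each point is 1 library, GFP replicates 1 and 2 and bead replicates 1 and 2; SCAF4 sits at 3510.1 and 1477 CPM on GFP beads against 46.3 and 45.9 CPM on control beads, and RN7SK lies below its beads.

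The mRNAs that led RUVBL1 recovery in untreated cells were followed next. This list of 14 was chosen for its enrichment in the untreated libraries, so those values are a description. After CB-6644, 7 of the 14 were higher (background 1.87%), and the median log2 was 1.55. It was 1.87 with replicate 1 alone and 1.21 with replicate 2 alone. In untreated cells the median was 3.67, a value that the choice of the list itself favours. All 14 had both GFP libraries above both bead libraries after CB-6644, where 23.1% of all genes tested did. PRPF8, the central U5 snRNP protein, was at 3519 and 1968 CPM in the GFP libraries and 209 and 179.6 CPM in the bead libraries (log2 3.82 ± 0.40, adjusted p = 1.58e-06). EP400, the ATPase of the TIP60 complex, was at 1501 and 915 CPM against 183 and 113 CPM (log2 3.03 ± 0.38, adjusted p = 3.22e-05). SRCAP, the ATPase of the H2A.Z-loading complex, was at 1586 and 1033 CPM against 154 and 127 CPM (log2 3.22 ± 0.37, adjusted p = 9.32e-06). For all 3 mRNAs replicate 1 exceeded replicate 2 and neither approached the beads. GOLGA4, a golgin of the trans-Golgi, was at 3227 and 1306 CPM against 162 and 141 CPM (log2 3.90 ± 0.38, adjusted p = 4.71e-07). BRD8, a TIP60 subunit, was at 156 and 128 CPM against 57.8 and 50.7 CPM (log2 1.39 ± 0.25, adjusted p = 0.00274), a call lost without either bead library.

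The largest subunits of the RNA polymerases were in this list too and none was called after CB-6644. POLR2A, the largest subunit of RNA polymerase II, was at 1484 and 1001 CPM against 489 and 381 CPM (log2 1.51 ± 0.45, adjusted p = 0.0748). POLR1A of polymerase I had a log2 of 1.22 ± 0.43, adjusted p = 0.13, and POLR3A of polymerase III had 0.78 ± 0.40, adjusted p = 0.264. POLR2B, the second subunit of polymerase II, was at 136 and 116 CPM against 75.7 and 67.9 CPM (log2 0.81 ± 0.30, adjusted p = 0.127). In these 4 genes both GFP libraries stood above both beads, but the difference did not pass the test. INO80 (0.77 ± 0.25, adjusted p = 0.0864), the kinase SMG1 (0.99 ± 0.29, adjusted p = 0.0629) and the U5 GTPase EFTUD2 (1.59 ± 0.64, adjusted p = 0.187) were not called either. The list had 11 calls with DESeq2 and 13 with no filter on low counts. Over all genes, these settings called 944 and 983 higher and 482 and 481 lower.

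Enrichment after CB-6644 was compared with enrichment in untreated cells in 1 interaction term over their 8 libraries, which share no sample. It was higher after CB-6644 for 22 genes (0.138%) and lower for 8 (0.0501%), with 1049 and 829 at an unadjusted p under 0.05. The 22 comprised 9 box C/D snoRNAs, SNORD135 among them with 44 and 101 counts on GFP beads and 0 on both control beads after CB-6644, 5 scaRNAs, SCAF4, CHERP, SCAF8, RPRD2, WASHC2A, WASHC2C, CHTOP and NIN. SNORD17 changed by 6.50 ± 0.91, adjusted p = 0.0204, from -0.21 untreated to 6.29. SNORD22 changed by 5.63 ± 0.76, adjusted p = 0.00818 and SCARNA2 by 4.00 ± 0.39, adjusted p = 6.28e-06. CHTOP, an mRNA export factor, went from -0.15 to 1.56 (change 1.70 ± 0.33, adjusted p = 0.0192), and NIN, ninein of the centrosome, from -0.54 to 0.99 (change 1.53 ± 0.32, adjusted p = 0.0389); both lie outside the naming rule. The SNORD17, SNORD22, CHTOP and NIN changes were not called without bead replicate 1, without bead replicate 2 or without the first untreated bead replicate, and those of SNORD17, CHTOP and NIN also not without either untreated GFP library.

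The 8 genes with less enrichment after CB-6644 were EP400, POLR2B, PRPF8, SCAMP5, SYT17, TRIM13, BRD8 and CREB3. EP400 fell from 6.07 to 3.03 (change -3.05 ± 0.51, adjusted p = 0.0044), POLR2B from 3.57 to 0.81 (change -2.76 ± 0.43, adjusted p = 0.00199) and PRPF8 from 6.44 to 3.82 (change -2.63 ± 0.51, adjusted p = 0.0206). In EP400 and PRPF8 the mRNA therefore stayed above the beads at a smaller ratio, while POLR2B no longer passed the test. BRD8 fell from 3.19 to 1.39 (change -1.81 ± 0.35, adjusted p = 0.0186). TRIM13, a ubiquitin ligase, fell from 2.10 to 0.11 (change -1.99 ± 0.34, adjusted p = 0.00572), and SCAMP5, a secretory carrier membrane protein, from 1.62 to -0.48. SYT17, a synaptotagmin, fell from 1.92 to -0.08, and CREB3, a membrane-bound transcription factor outside the naming rule, from 1.47 to -0.12. The count of 30 was 61 without GFP replicate 2, 1511 without GFP replicate 1, 19 without bead replicate 1, 104 without the second untreated bead replicate and 11 with the 8 libraries alone. Without bead replicate 1 the EP400, TRIM13, BRD8, SYT17, CREB3 and PRPF8 changes were not called, and without bead replicate 2 those of SCAMP5, BRD8, SYT17, CREB3 and PRPF8. Without the first untreated GFP replicate PRPF8, BRD8, TRIM13, SYT17 and CREB3 were not called, without the first untreated bead replicate SCAMP5, SYT17 and CREB3, without the second untreated bead replicate PRPF8, and without GFP replicate 2 CREB3. Of the 298 genes higher after CB-6644, 24 were also higher in untreated cells, which is 8.05% of the 298 and 16.4% of the 146 untreated calls.

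**Figure D4:**
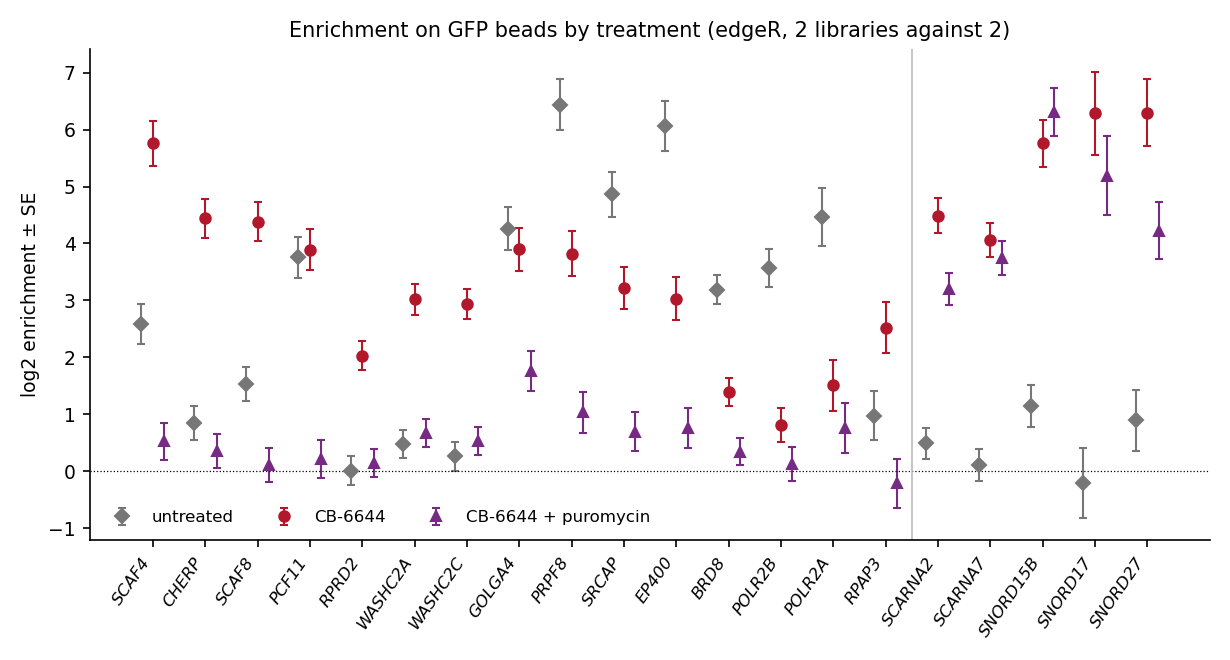
Log2 enrichment (GFP over bead libraries) with its SE for 20 RNAs in untreated, CB-6644 and CB-6644 plus puromycin cells, each from 2 GFP and 2 bead libraries. SCAF4 goes from 2.59 to 5.76 and then 0.52, EP400 from 6.07 to 3.03 and then 0.75, and SNORD15B from 1.15 to 5.76 and then 6.31.

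Under CB-6644, puromycin lowered the enrichment of a few mRNAs led by SCAF4. The interaction of puromycin with enrichment in CB-6644-treated cells was lower for 8 genes (0.0501%) and higher for 0 in edgeR; at an unadjusted p under 0.05 it was lower for 187 and higher for 142, and DESeq2 called 14 lower and 0 higher. The 8 were SCAF4, SCAF8, CHERP, PCF11, PRPF8, WASHC2C, WASHC2A and RPRD2. SCAF4 was at 80.0 and 69.6 CPM against 50.1 and 54.4 CPM after CB-6644 plus puromycin, a log2 of 0.52 ± 0.33 and a change of -5.24 ± 0.49, adjusted p = 6.99e-06. CHERP was at 156 and 157 CPM against 113 and 133 CPM (change -4.09 ± 0.44, adjusted p = 1.35e-05). SCAF8 changed by -4.28 ± 0.44, adjusted p = 1.21e-05, PCF11 by -3.68 ± 0.48, adjusted p = 0.000526 and PRPF8 by -2.79 ± 0.51, adjusted p = 0.0329. Their GFP libraries lay closer to the beads once puromycin had been added. This comparison uses the same 4 CB-6644 libraries as the comparison with untreated cells, so the values are given side by side. PRPF8 and RPRD2 lost the call without either CB-6644 bead library, without either GFP library of CB-6644 plus puromycin and without its second bead replicate, and PRPF8 also without its first. WASHC2A lost it without CB-6644 bead replicate 2 or the second GFP replicate of CB-6644 plus puromycin. The count of 8 was 124 (76 higher, 48 lower) without GFP replicate 1 and 14 without GFP replicate 2. It was 5 without CB-6644 bead replicate 2 and 5 without the second GFP replicate of CB-6644 plus puromycin.

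None of the 134 box C/D snoRNAs or 17 scaRNAs changed with puromycin by edgeR, with 2 higher and 10 lower, and 1 higher and 2 lower, at an unadjusted p under 0.05, and 0 with DESeq2. Without GFP replicate 1, 4 box C/D snoRNAs and 1 scaRNA were lower with puromycin. SNORD15B was at 2712 and 1933 CPM against 20.9 and 37.8 CPM with puromycin (log2 6.31 ± 0.42, change 0.55 ± 0.48, adjusted p = 1). SCARNA2 was at 183 and 130.1 CPM against 20.0 and 14.0 CPM (log2 3.20 ± 0.28, change -1.29 ± 0.37, adjusted p = 1). Both RNAs thus kept GFP libraries well above the beads. A p that misses the threshold does not show that puromycin left them alike.

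A few members of other gene lists were also enriched. WASHC2A and WASHC2C, near-identical FAM21 subunits of the endosomal WASH complex, were 2 of 6 listed genes called higher (background 1.87%). WASHC2A was at 177 and 110.0 CPM against 20.5 and 14.9 CPM (log2 3.02 ± 0.27, adjusted p = 1.12e-07). WASHC2C was at 161 and 103 CPM against 17.4 and 17.0 CPM (log2 2.94 ± 0.26, adjusted p = 1.45e-07). Reads of these copies may be divided between them, so each value is uncertain. In untreated cells they were at 0.48 and 0.26. RPAP3, the R2TP subunit that binds HSP90, was at 339 and 139.7 CPM in the GFP libraries and 43.5 and 39.9 CPM in the bead libraries (log2 2.52 ± 0.45, adjusted p = 0.0139); it was not called without bead replicate 1 or bead replicate 2. The bait mRNA RUVBL1 was at 88.3 and 60.7 CPM against 66.1 and 66.0 CPM (log2 0.18 ± 0.33, adjusted p = 0.798) and RUVBL2 at 269 and 161 CPM against 238 and 267 CPM (log2 -0.23 ± 0.25, adjusted p = 0.626), and for both the GFP and bead libraries overlapped. Of the other R2TP and prefoldin-like genes, UXT was lower (-0.99 ± 0.26, adjusted p = 0.045), which was lost without GFP replicate 2 and without either bead library.

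Of 31 INO80, SRCAP and TIP60 subunit genes, 4 were higher, where 1.87% of all genes tested were, as for each list that follows: EP400, SRCAP, BRD8 and DMAP1 (1.08 ± 0.26, adjusted p = 0.0306), with a list median of -0.01. The count was 2 without bead replicate 1 and 2 without bead replicate 2; BRD8 and DMAP1 lost the call without either. The U5 and U4/U6 snRNP list had 1 of 17 (PRPF8), with SNRNP200, the U5 helicase, at 0.59 ± 0.31, adjusted p = 0.267. The golgins had 1 of 10 (GOLGA4). The TSC complex had 1 of 3, TSC2, at 60.0 and 63.7 CPM against 30.7 and 30.5 CPM (log2 1.01 ± 0.23, adjusted p = 0.0199), not called without GFP replicate 2 or either bead library. Of 14 genes for snoRNP proteins and assembly factors 1 was higher, ZNHIT6, a box C/D assembly factor, at 87.3 and 52.6 CPM against 39.0 and 33.9 CPM (log2 0.94 ± 0.25, adjusted p = 0.0435); fibrillarin (FBL, -0.71 ± 0.27, adjusted p = 0.129) and SNU13 (-0.75 ± 0.25, adjusted p = 0.0984) were not called. ZNHIT6 was not called with GFP replicate 2 alone, nor without either bead library. MPHOSPH10, a U3 snoRNP protein outside the naming rule, was at 211 and 104 CPM against 65.3 and 60.5 CPM (log2 1.33 ± 0.25, adjusted p = 0.0055) and was lost without either bead library.

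The mRNAs of very long cytosolic proteins were described as a list. Of 31, 2 were higher (background 1.87%), SPTBN1 (1.70 ± 0.36, adjusted p = 0.0186) and HERC2 (1.25 ± 0.32, adjusted p = 0.0432), with a list median of 0.84; replicate 2 alone called 13 (background 9.96%) and replicate 1 alone 0 (background 0.908%). SPTBN1, a spectrin, was at 325 and 626 CPM against 194 and 98.2 CPM, and both calls were lost without GFP replicate 2 and without bead replicate 2. The telomerase-associated protein gene TEP1 (2.26 ± 0.49, adjusted p = 0.0392) is a further called mRNA outside the naming rule, and it lost the call without GFP replicate 2 or either bead library. The genes of the 209 coding mRNAs spanned a median of 53.0 kb, where all coding genes tested spanned 31.0 kb and the 80 lower ones 11.7 kb. These spans run from gene start to gene end with introns, so they are not mRNA lengths. Of the 209, 19 had a log2 above 2. Besides those described, these were TNFRSF25, GRIP2, ANKRD23, PAPLN, CCDC61 and GOLGA8B, all outside the naming rule, at 2.51, 2.42, 2.19, 2.18, 2.11 and 2.01. All 6 lost the call without GFP replicate 2 and without either bead library, and GOLGA8B belongs to a family of near-identical copies. PAPLN, for example, was at 6.87 and 24.4 CPM against 3.77 and 3.08 CPM, with replicate 1 nearer the beads than replicate 2. In all, replicate 1 alone called 12 of the 19 and replicate 2 alone called 19.

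Several groups tied to R2TP gave no call. Of all 15976 genes tested, 1903 were higher and 1628 lower at an unadjusted p under 0.05 in edgeR. DESeq2 called 944 of them higher and 482 lower. None of 31 RNA polymerase subunit genes was called by edgeR (5 higher and 6 lower at an unadjusted p under 0.05, and 2 higher and 3 lower with DESeq2), with a list median of -0.29; replicate 1 alone called 0 with a median of 0.06, and replicate 2 alone 13 lower (background 12.5%) with a median of -0.47. Of 9 PIKK and TTT genes 0 were called (6 higher and 0 lower unadjusted, 3 higher with DESeq2), and their median was 0.70. TELO2, the TTT co-chaperone, was at 25.6 and 80.0 CPM against 18.5 and 14.0 CPM (log2 1.69 ± 0.42, adjusted p = 0.0511), and PRKDC, the DNA-dependent kinase, was at 994 and 962 CPM against 522 and 408 CPM (log2 1.07 ± 0.37, adjusted p = 0.108). Of 4 Argonaute genes 0 were called (2 higher unadjusted, 2 higher with DESeq2), AGO3 coming nearest at 1.28 ± 0.37, adjusted p = 0.0731. The 6 polymerase assembly factors and 10 TFIIIC and TFIIIB genes had 0 calls (2 and 3 higher unadjusted, 2 and 3 with DESeq2). RPAP2 had 1.43 ± 0.48, adjusted p = 0.121, and BRF1, a TFIIIB subunit, had 0.89 ± 0.24, adjusted p = 0.0501; BDP1, another, was called with replicate 1 alone at 1.20 (adjusted p = 0.00982).

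**Figure D5:**
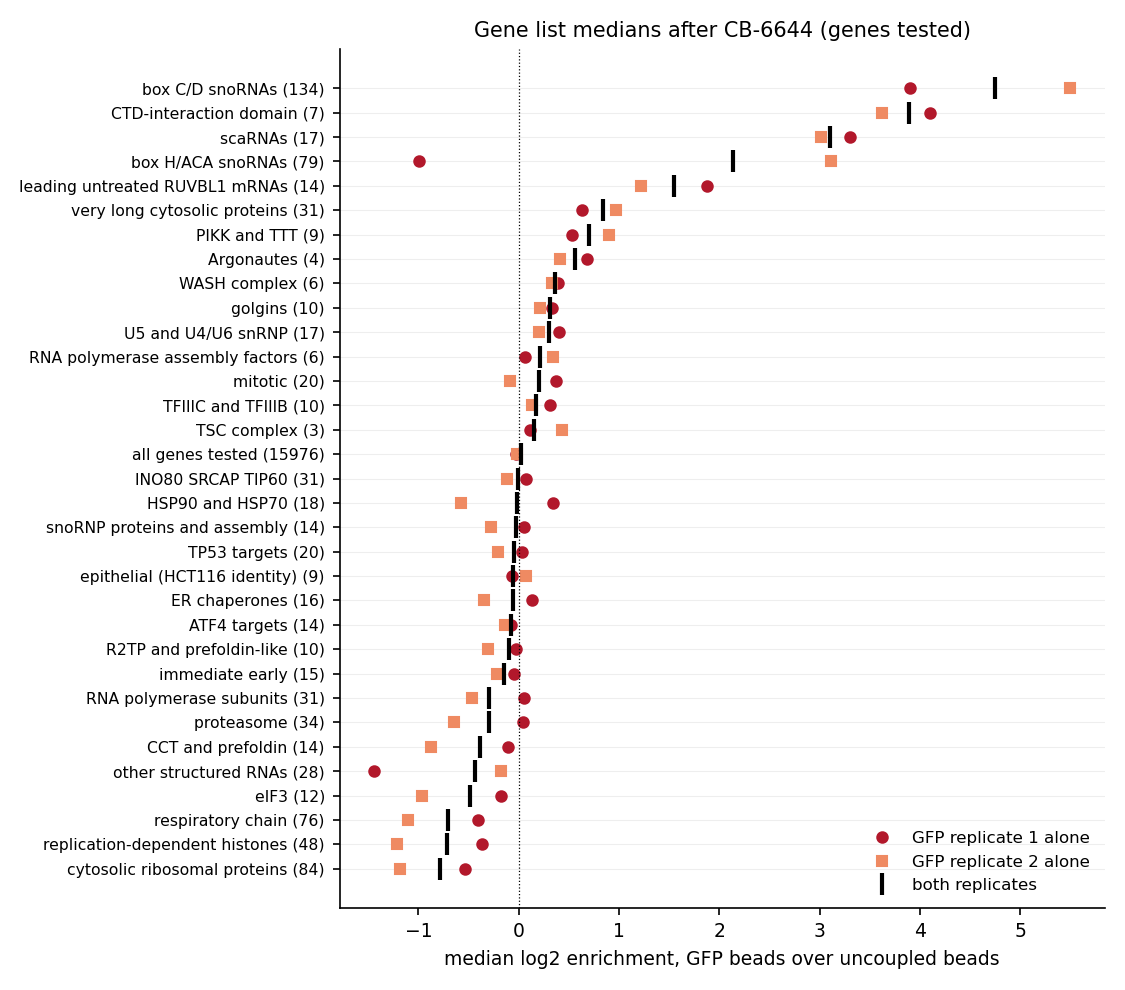
Median log2 enrichment after CB-6644 of each gene list with GFP replicate 1 alone, GFP replicate 2 alone and both. Box C/D snoRNAs (3.90, 5.49 and 4.75), the CTD-interaction domain list (4.10, 3.62 and 3.89) and scaRNAs (3.30, 3.01 and 3.10) lie to the right of the all-gene median of 0.02 with either replicate, while box H/ACA snoRNAs lie at -0.999, 3.11 and 2.14.

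RNAs lower on GFP beads than on control beads included abundant structured RNAs of RNA polymerase III. The largest differences in this direction were those of the non-coding RNA LOC221946 (-3.63 ± 0.95, adjusted p = 0.044) and of SMPDL3A (-2.16 ± 0.56, adjusted p = 0.0438), which had mean levels of 1.09 and 2.74 CPM, below the 5 CPM of the naming rule, and were not called without GFP replicate 2 or either bead library. RN7SK, which restrains P-TEFb, was at 10599 and 11672 CPM in the GFP libraries and 34339 and 35993 CPM in the bead libraries (log2 -1.66 ± 0.42, adjusted p = 0.0402). RPPH1, the RNA of RNase P, was at 6334 and 5091 CPM against 17454 and 17081 CPM (log2 -1.60 ± 0.35, adjusted p = 0.0188), and RMRP, the RNA of RNase MRP, was at 4434 and 6875 CPM against 16378 and 12954 CPM (log2 -1.38 ± 0.33, adjusted p = 0.0305). The signal recognition particle RNAs RN7SL1 and RN7SL2, near-identical copies, were at -1.36 ± 0.36 and -1.36 ± 0.36. In all 5 both GFP libraries lay below both bead libraries. They were the 5 calls among 28 tested structured RNAs other than snoRNAs (background 0.557%), whose median was -0.44. That median was -1.44 with replicate 1 alone and -0.18 with replicate 2 alone. In untreated cells the list median also lay below 0, at -0.90. None of the 5 was called without bead replicate 1 or without bead replicate 2, and RN7SK, RPPH1 and RN7SL2 were not called without GFP replicate 2. The adjusted p values lay near the threshold, from 0.0188 to 0.045.

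The other lower calls included mRNAs of histones, ribosomal proteins and the respiratory chain. H4C3, a histone H4 gene with many close copies, was at 99.1 and 49.6 CPM against 195 and 185 CPM (log2 -1.35 ± 0.27, adjusted p = 0.00872), and 6 of 48 replication-dependent histone genes were lower (background 0.557%), with a list median of -0.72. The ribosomal protein gene RPL32 was at 1307 and 555 CPM against 2027 and 2451 CPM (log2 -1.27 ± 0.33, adjusted p = 0.042) and was the 1 lower call among 84, with a list median of -0.78. The respiratory chain list had 5 lower of 76, among them COX7A2 at 63.4 and 58.6 CPM against 125 and 131 CPM (log2 -1.07 ± 0.23, adjusted p = 0.0165), with a list median of -0.71. These lists leaned on GFP replicate 2. Replicate 1 alone called 0 of each, with medians of -0.37, -0.54 and -0.40. Replicate 2 alone called 30 histone, 59 ribosomal protein and 51 respiratory chain genes lower (background 12.5%), with medians of -1.22, -1.19 and -1.11. In 79 of the 84 ribosomal protein genes both GFP libraries lay below both beads, where 24.9% of all genes did. Without bead replicate 1 the 3 lists had 0 lower calls and without bead replicate 2 they had 1, 0 and 0. The cytosolic RNA BCYRN1 (-1.26 ± 0.24, adjusted p = 0.00458) and the mRNAs MPC1 (-1.49 ± 0.38, adjusted p = 0.041), CPT1C (-1.44 ± 0.38, adjusted p = 0.0479), KRTCAP2 (-1.27 ± 0.32, adjusted p = 0.0404) and SMIM20 (-1.25 ± 0.29, adjusted p = 0.0228) complete the largest lower calls with a mean of at least 5 CPM. All 5 lost the call without either bead library, and the 4 mRNAs also without GFP replicate 2, as did H4C3, RPL32 and COX7A2. Of the liver markers SERPINA1 was lower (-1.48 ± 0.36, adjusted p = 0.0321), but not without GFP replicate 2 or either bead library.

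Some genes passed the test in 1 GFP replicate and not, or not the same way, in the other. With replicate 2 alone, the germ-cell gene MNS1 was lower at -3.56 (adjusted p = 3.3e-05), and its CPM were 8.87 and 0.740 CPM against 9.46 and 8.12 CPM. RPL26L1, a ribosomal protein paralog, was at 66.1 and 9.44 CPM against 73.6 and 70.0 CPM, or -0.12 with replicate 1 alone and -2.93 with replicate 2 alone. COX6C, a cytochrome c oxidase subunit, was at 665 and 154 CPM against 1014 and 941 CPM, or -0.56 and -2.67. In these 3 genes replicate 2 lay far below both beads and below replicate 1. ABALON (-3.04), NACA4P (-2.90) and H2BC13 (-2.65) were likewise lower with replicate 2 alone. With replicate 1 alone, the vault RNA VTRNA1-3 was lower at -2.10 (adjusted p = 0.0165) at 2.10 and 5.00 CPM against 10.7 and 7.41 CPM. TMEM128 was at -1.45 with replicate 1 alone and -0.66 with replicate 2 alone, while the growth factor gene IGF2 was lower with each (-1.41 and -0.89). TMEM59L had opposite calls, lower with replicate 1 alone (-1.71, adjusted p = 0.0133) and higher with replicate 2 alone (0.92, adjusted p = 0.034), from 2.97 and 18.4 CPM against 8.45 and 10.9 CPM. GFP replicate 2 also had the fewest counts of the 16 libraries and a normalization factor of 1.20, where the others had 0.912 to 1.123; the part of depth and composition in these differences was not tested.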

How the data were processed

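Counts per gene of RNA immunoprecipitates were deposited for 24 libraries. Per the submitters' processing notes the authors made these counts with TopHat2 2.1.1 and featureCounts 2.0.3 on hg38, after bcl2fastq and FastQC. The SMART-Seq kit keeps strand, per the labels' protocols; which strand and multi-mapping settings the counting used is not given in the sources used here. The table held 28307 genes, of which 27757 were matched by gene ID to the RefSeq GRCh38.p14 gene table. Totals ran from 9019665 to 33051512 in the RUVBL1 line. Groups came from the sample titles.

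The deposited counts of the 16 RUVBL1-line libraries were fitted in 1 edgeR 4.0.16 model (filterByExpr, TMM, robust quasi-likelihood, R 4.3.3), leaving 15976 genes with a common biological coefficient of variation of 0.263. Tests were 2-sided, with Benjamini-Hochberg adjustment over all genes at 0.05. CPM of single genes use the TMM-scaled library size; summed classes and markers use the raw total. The model was tested on simulated data. Alternatives were DESeq2 1.42.0, other scalings and filters, and left-out libraries.

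The members and lists were chosen with earlier results of these data known. Named genes were the bait and its partners, 14 leading untreated mRNAs, the 12 largest calls each way with a mean of at least 5 CPM and no overlap, up to 4 per list by smallest p, and the 6 largest per single replicate and per change; others are said to lie outside this rule. The split of snoRNAs into box C/D and box H/ACA by symbol, and of scaRNAs by box, was added after seeing the data. RPAP3-line libraries entered neither the fit nor any comparison here. RUVBL1-line libraries given puromycin without CB-6644 entered the fit, and so its filter, scaling and estimate of spread, but no comparison.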

Additional observations from a re-analysis of the deposited data

Results flagged for a closer look

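Enrichment on GFP beads differed between CB-6644-treated and untreated cells for 30 genes in the interaction term of the edgeR fit. Each difference is log2 enrichment after CB-6644 minus that in untreated cells. Among mRNAs, it was 3.17 for SCAF4, 3.59 for CHERP, 2.85 for SCAF8, 2.02 for RPRD2, 2.54 for WASHC2A, 2.67 for WASHC2C, 1.70 for CHTOP and 1.53 for NIN. It was -2.63 for PRPF8, -3.05 for EP400, -2.76 for POLR2B, -1.81 for BRD8, -1.60 for CREB3, -2.10 for SCAMP5, -2.00 for SYT17 and -1.99 for TRIM13. Box C/D snoRNAs differed by 4.85 (SNORD29), 5.63 (SNORD22), 5.41 (SNORD27), 6.50 (SNORD17), 4.61 (SNORD15B), 4.77 (SNORD58A), 4.99 (SNORD2) and 5.30 (SNORD89). SCARNA2, SCARNA7, SCARNA28, SCARNA5 and SCARNA17 differed by 4.00, 3.94, 2.96, 4.54 and 4.87. SNORD2, SNORD89, CHTOP, NIN, CREB3 and RPRD2 lie outside the naming rule. SNORD135, the last of the 30, had 44 and 101 counts on GFP beads and 0 on both control beads after CB-6644, so no fold change is given.

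Puromycin under CB-6644 lowered enrichment for 8 genes in the same kind of term, with differences of -2.79 (PRPF8), -3.68 (PCF11), -5.24 (SCAF4), -4.09 (CHERP), -4.28 (SCAF8), -1.89 (RPRD2), -2.36 (WASHC2A) and -2.41 (WASHC2C). Both comparisons use the same 4 libraries of CB-6644-treated cells. Groups of 2 libraries are too small for a check of single outlying samples.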

How the results depend on the processing

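The 387 calls became 1426 (944 higher, 482 lower) with DESeq2, 1464 (983 and 481) with no filter on low counts, 818 (771 and 47) with total-count scaling, 854 (597 and 257) with the beads of untreated cells added as control, 825 (536 and 289) without both libraries that stand apart, and 12 with the 4 libraries alone. The count stayed within 1.5 times of 387 with RLE (433), upper-quartile scaling (484), a stricter filter (487) and a dispersion that was not robust (391). The higher share was 77.0%, against 94.3% with total-count scaling, which moves the median of all genes from 0.02 to 0.26, and 63.6% with upper-quartile scaling. Leaving out 1 library gave 48 to 3585 calls. The 30 changes with CB-6644 became 174 with DESeq2, 284 with no filter, 11 with the groups compared alone, 53 with the replicate block, 74 without both libraries that stand apart, and 19 to 1511 with 1 library left out. The 8 changes with puromycin became 14 with DESeq2, 16 with no filter, 4 with the groups compared alone, and 5 to 124 with 1 library left out. TMEM59L turned from 0.10 to -1.71 without GFP replicate 2 and was 0.92 without GFP replicate 1, the first being the only called value here to change sign. SCAF4 and PCF11 were called in 15 of 15 alternatives, CHERP in 14, RPAP3 in 12 and POLR2A in 4. The causes of these differences between settings were not tested.

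Replicate numbers were taken as labels alone in all fits but the replicate block. Same-numbered GFP and bead libraries after CB-6644 did not deviate together (r = -0.0699). That reason covers CB-6644 enrichment but not the changes with CB-6644 and with puromycin. Over the 4 groups of the change with CB-6644 r ran from -0.0699 to 0.485, the highest between the CB-6644 and untreated GFP libraries. Between the GFP libraries of CB-6644 and of CB-6644 plus puromycin r was -0.493. The replicate block gave 533 calls (381 higher, 152 lower) for CB-6644 enrichment, 53 (42 and 11) for the change with CB-6644 and 11 for the change with puromycin. RNAs with few counts on control beads, SNORD5 among them, are limited by counting.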
